A study of Homo sapiens with 30 samples.

Results

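The genes described here are 37 targets of the transcription factor p53, chosen by gene name from a fixed list and followed through every treatment of one experiment. All 37 were found among the 58780 genes of the count matrix. All 37 also passed the filter on low counts, so no member dropped out of the tests. The choice used gene names and no measured value, although it was made with earlier results of these data known.

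p53 is a stress sensor that binds DNA as a tetramer and switches on genes for cell cycle arrest, cell death, DNA repair and metabolic adjustment. In unstressed cells the ubiquitin ligase MDM2, itself a p53 target, keeps p53 low, and this loop makes the level of p53 targets a common readout of p53 activity. A549, the human lung adenocarcinoma line used here, is known to lack the CDKN2A locus. Protein arginine methyltransferases (PRMTs) add methyl groups to arginines of histones, splicing factors and other proteins. PRMT5 makes symmetric dimethylarginine and the Type I enzymes make the asymmetric form.

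Engaged RNA polymerase was mapped by PRO-seq, in which polymerases in permeabilised cells add a labelled nucleotide and the resulting nascent RNA is sequenced, so that a gene's reads report transcription in progress rather than stored mRNA. Cells were left untreated or given 100 nM dexamethasone (Dex, a glucocorticoid) for 15 min or 3 h. They were given 1 µM GSK591 (a PRMT5 inhibitor) or 1 µM MS023 (an inhibitor of Type I PRMTs) for 2, 4 or 7 days. Dex was also given together with either inhibitor for 3 h, and for 15 min or 3 h to cells that had 7 days of either inhibitor. All 15 groups, untreated cells included, had 0.01% DMSO, and each held 2 libraries made, per the labels, from the same number of cells. The labels do not say that the libraries of a group came from separate cultures, so p-values measure the spread between libraries, which may be technical. One pair of untreated libraries, labelled with a 15 min time, served all comparisons with untreated cells, which therefore share it.

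Libraries held 8441211 to 13069598 counts, of which mitochondrial genes took 58.7% to 78.7%. This share moved with treatment: it was 73.4% and 76.0% in untreated libraries, 73.7% and 78.7% at 7 days of GSK591 and 58.7% and 59.6% at 7 days of MS023, and its part in the results below was not tested. The 37 p53 targets together had 7546 to 15881 counts per library. Replicate correlations over genes ran from 0.912 to 0.981. The lowest belonged to cells given Dex and MS023 together for 3 h, the group that stood apart. FKBP5 and TSC22D3, known glucocorticoid targets, rose by 2.90 and 2.89 on the log2 scale at 3 h. Among the 13 A549 markers the summed level was 883 to 1720 CPM (counts scaled to library size), and among the 10 markers of blood, endothelial and fibroblast cells it was 4.4 to 13.2 CPM. CDKN2A, absent from this line, stood at 0 to 0.294 CPM. Of the lung lineage genes on the marker list, NKX2-1 stood at 0 to 0.689 CPM and SFTPC at 0.556 to 4.41 CPM. EPCAM and CDH1, epithelial genes of the same list, were low too, at 0.957 to 6.19 and 1.0 to 6.65 CPM. Among the markers of other cell types PTPRC, CD3E and LYZ, genes of blood cells, were at 0 in 13, 21 and 22 of the 30 libraries. At 7 days of MS023, 2 of the 5 such markers tested rose, COL1A1 by 1.14 and CDH5 by 2.37 on the log2 scale (edgeR adjusted p = 0.00108 and 0.0286), 0 of the 5 were called at 7 days of GSK591 by edgeR, and their part in the results was not tested.

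DNA next to some of these genes carries the sequence p53 recognises, and the matches in member promoters are shown as a description of these windows. RefSeq gave a promoter window of 300 bases (250 before to 50 after the start, build GRCh38.p14) for 27 of the 37 members. The p53 full site, a run of 20 bases made of a 10-base unit and its repeat with no spacer, was searched on both strands. Up to 3 mismatches to the consensus were allowed, but the fixed C and the fixed G of each unit had to match. The full site was found in 7 of the 27 windows (25.9%) and in 1.37% of the windows of 27305 genes. With up to 2 mismatches it was found in 11.1% of member windows and 0.359% of all windows. A single 10-base unit with no mismatch, which may lie within a full site, was in 22.2% of member windows and 8.06% of all windows. The 7 full sites are printed 5′ to 3′ on the strand of their gene, with bases that match the consensus in capitals.
AEN: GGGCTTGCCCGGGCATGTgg
DDB2: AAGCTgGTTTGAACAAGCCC
FAS: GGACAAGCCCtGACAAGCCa
FDXR: GGGCAgGagCGGGCTTGCCC
GDF15: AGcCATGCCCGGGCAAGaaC
PMAIP1: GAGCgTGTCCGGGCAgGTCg
SESN1: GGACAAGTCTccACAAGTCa

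Counted from the start site, these sites begin at position -34 in AEN, -5 in DDB2, -122 in FAS, -21 in FDXR, 29 in GDF15, -185 in PMAIP1 and -49 in SESN1. On GRCh38.p14 they lie at chr15:88621306-88621325 (AEN, plus strand), chr11:47214969-47214988 (DDB2, plus), chr10:88991309-88991328 (FAS, plus) and chr17:74872996-74873015 (FDXR, minus). The others lie at chr19:18386186-18386205 (GDF15, plus), chr18:59899811-59899830 (PMAIP1, plus) and chr6:109009018-109009037 (SESN1, minus). A match describes letters in a window and does not show binding. FDXR and GDF15, which carry one, were among the members called most often below. AEN, DDB2 and SESN1, which carry one too, were called by edgeR in at most 1 comparison of an inhibitor with untreated cells. The authors' deposited tables, described below, called each of these 3 genes in more than 1.

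Another pair of members gives rise to microRNAs, short RNAs that pair with target mRNAs through bases 2 to 8, the seed, shown here in capitals. MIR3189 lies within GDF15, and MIR34AHG is the host transcript of MIR34A, a microRNA known to act downstream of p53. Their mature sequences, from RefSeq on GRCh38.p14, are shown because both host loci changed with the inhibitors.
hsa-miR-3189-3p: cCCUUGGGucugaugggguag
hsa-miR-3189-5p: uGCCCCAUcugugcccuggguagga
hsa-miR-34a-5p: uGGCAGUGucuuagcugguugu
hsa-miR-34a-3p: cAAUCAGCaaguauacugcccu

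The seed of miR-34a-5p is shared by miR-449a and miR-449b-5p, and the seeds of the other 3 are shared with no other listed mature microRNA. PRO-seq reads are of nascent precursor RNA, so none of the values below measures a mature microRNA.

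In untreated cells, per kb of exon, the members spanned from 127 CPM per kb for MIR3189 to 0.227 for TNFRSF10C. The feature type counted is not given in the sources used here, so exon length may not be the right divisor. The value of MIR3189 rests on 73 annotated bases and a mean of 9.29 CPM, and is not comparable with those of longer genes. Among protein-coding members TP53I3, an oxidoreductase, led with 41.4 CPM per kb, followed by the kinase PLK2 with 30.8 and the secreted factor GDF15 with 23.5. CDKN1A, the CDK inhibitor p21, stood at 3.51 CPM per kb and FAS, a death receptor, at 0.654. TNFRSF10C had 0 to 13 counts per library, and no direction is drawn for it.

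In the edgeR fit fewer p53 targets were called than not in each comparison of an inhibitor with untreated cells. This did not hold in every comparison elsewhere. The authors' deposited tables, described below, had 21 of 30 listed members higher at 7 days of GSK591. Total-count scaling called 36 of the 37 at 7 days of MS023. Calls below are those of the edgeR fit unless another source is named. These edgeR calls were mostly higher at 2, 4 and 7 days of GSK591 and at 4 and 7 days of MS023. At 2 days of MS023 the calls were mixed. With GSK591, 13, 15 and 18 of the 37 members rose at 2, 4 and 7 days and 0, 1 and 0 fell (edgeR quasi-likelihood test, Benjamini-Hochberg adjusted p below 0.05 over 22919 genes). Over all genes tested, 5.64%, 17.2% and 13.2% were called in either direction, 3.19%, 8.91% and 6.68% were called higher, and 2.45%, 8.28% and 6.52% lower. The median log2 fold change of members was 0.44, 0.31 and 0.50, against a median over all genes of 0.00, 0.00 and 0.00. With MS023, 4, 6 and 15 members rose and 3, 0 and 1 fell at 2, 4 and 7 days. There the background was 10.4%, 14.2% and 13.6% in either direction, 6.18%, 7.8% and 7.13% higher and 4.21%, 6.37% and 6.51% lower, and the member medians were -0.04, 0.12 and 0.25. At 2 days of MS023, 15 members lay above 0 and 22 below. More members were called with GSK591 than with MS023 at each time under this scaling. The order turned under total-count scaling, with 14, 22 and 10 members called for GSK591 and 22, 30 and 36 for MS023. Under that scaling 984, 4631 and 1135 of all genes were called for GSK591 and 9228, 11285 and 16196 for MS023. The order over all genes was thus the same as that of the members. In bulk libraries, a change in the share of cells that transcribe a gene and a change in transcription per cell cannot be told apart.

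Single libraries moved some of these counts. With GSK591 at 2 days the count of 13 fell to 8 without untreated replicate 1 and to 6 without GSK591 replicate 2. The MS023 count of 7 at 2 days was 2 without untreated replicate 1, 4 without MS023 replicate 1 and 2 without MS023 replicate 2. At 4 days of MS023 the count of 6 was 2 without untreated replicate 1 and 3 without MS023 replicate 2, and at 7 days the count of 16 was 6 without untreated replicate 1 and 9 without MS023 replicate 1. Scaling by total counts alone shifted the median of all genes by 0.29, 0.42 and -0.03 with GSK591 and by 0.68, 0.74 and 1.02 with MS023. Fold changes here are relative to the TMM scaling, where that median is near 0. Under total counts 93.5% to 99.5% of the calls over all genes were higher in 5 of the 6 comparisons, and 49.9% with GSK591 at 7 days.

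**Figure D1:**
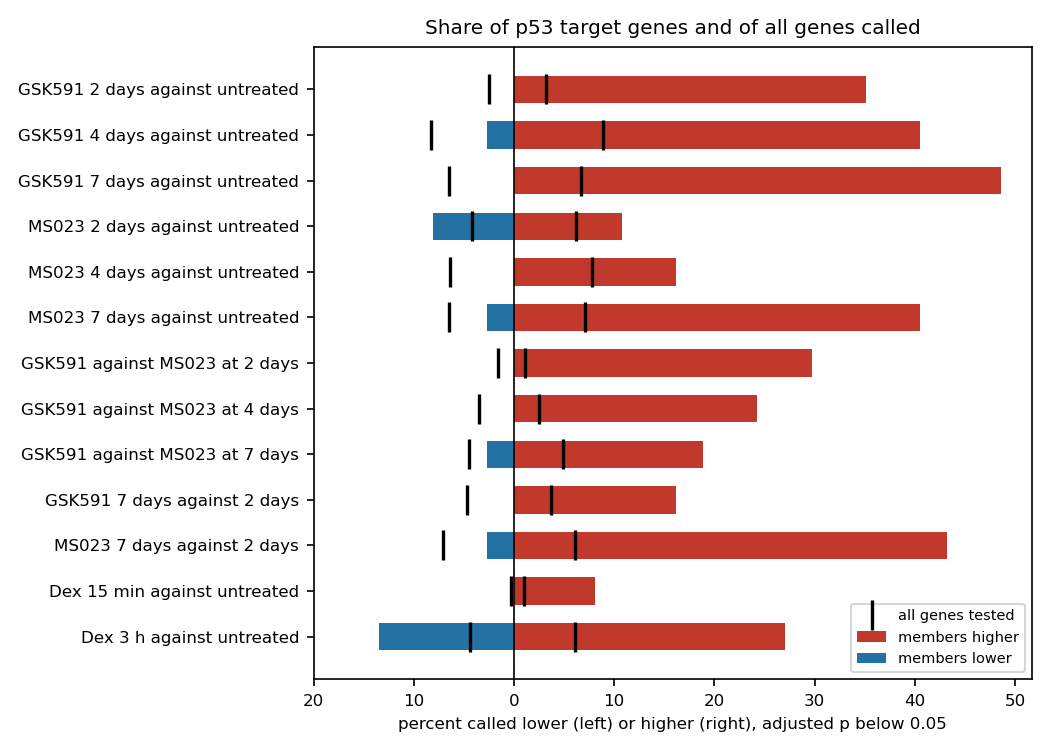
Percent of the 37 p53 targets called higher (red bars, to the right) or lower (blue bars, to the left) at adjusted p below 0.05 in 13 comparisons, with black ticks for all 22919 genes tested. With GSK591 at 7 days 48.6% of members were higher against 6.68% of all genes. The higher calls of GSK591 against MS023 at 7 days turn to lower values under total-count scaling.

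**Figure D2:**
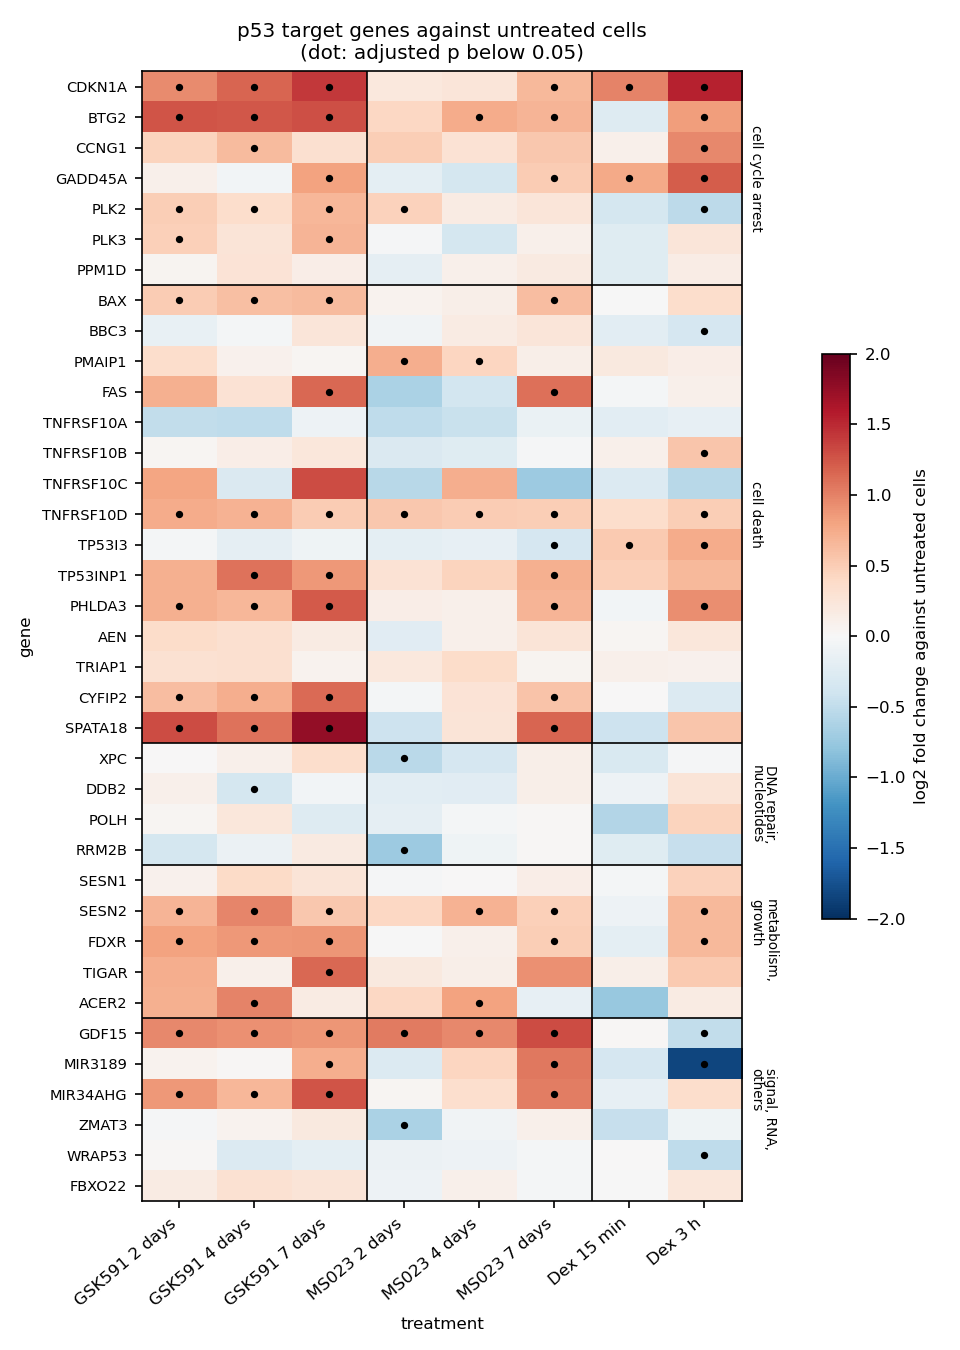
Log2 fold change against untreated cells (colour, from -2 to 2) of each p53 target (rows, grouped by role) in 8 treatments (columns), with a dot where the adjusted p is below 0.05. The 3 GSK591 columns and the MS023 column at 7 days are mostly red for arrest genes, while the 4 DNA repair and nucleotide genes have no dot at 7 days.

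The comparisons with untreated cells share the untreated libraries, so members called with both inhibitors are not independent evidence. At 7 days PLK2, PLK3 and TIGAR were called with GSK591 and not with MS023. In the direct comparison at 7 days PLK2 (0.41) and PLK3 (0.58) differed between the inhibitors and TIGAR (0.23) did not pass the test. TP53I3 fell by 0.34 with MS023, a call that ended without any one of the 4 libraries (-0.40 to -0.29) and under DESeq2 and turned to 0.68 under total-count scaling. Its difference between the inhibitors (0.25) did not pass. By edgeR, GDF15 and TNFRSF10D were called in all 6 comparisons, and 11 members in none.

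Of 7 members with roles in cell cycle arrest, 4, 4 and 5 rose with GSK591 at 2, 4 and 7 days and 1, 1 and 3 with MS023. Of all genes tested, 3.19%, 8.91% and 6.68% were called higher with GSK591 and 6.18%, 7.8% and 7.13% with MS023. Differences between roles were not tested. CDKN1A (ENSG00000124762.13, chromosome 6, 36676460 to 36687339 on hg38), which encodes the CDK inhibitor p21, stood at 10.3 and 11.1 CPM in the untreated libraries. It stood at 20.2 and 21.0 CPM after 2 days of GSK591, 23.1 and 24.9 after 4 days, and 32.9 and 24.0 after 7 days. Every GSK591 library was above both untreated ones, and the log2 fold changes were 0.94 ± 0.158 (SE), 1.16 ± 0.152 and 1.41 ± 0.153 (edgeR adjusted p = 0.000125, 1.08e-07 and 1.38e-09). MS023 gave 13.2 and 11.6, 11.3 and 14.0, and 19.3 and 14.2 CPM. Only the rise at 7 days was called, by 0.64 ± 0.153 (edgeR adjusted p = 0.00249), and the call ended without untreated replicate 1 (0.59, adjusted p = 0.053) or MS023 replicate 1 (0.40, adjusted p = 0.18). The antisense RNA DINOL overlaps CDKN1A, and the use of strand in counting is not given in the sources used here, so reads of the 2 genes cannot be told apart where they overlap.

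BTG2 (ENSG00000159388.5, chromosome 1, 203305491 to 203309602), an antiproliferative factor that recruits mRNA deadenylases, was already near its highest level at 2 days of GSK591. It stood at 13.5 and 13.5 CPM untreated and at 29.8 and 34.4 CPM after 2 days of GSK591, with 30.2 and 34.0 at 4 days and 33.9 and 32.2 at 7 days. The groups did not overlap, and the values at the 3 times were alike, with log2 changes of 1.25 ± 0.169, 1.25 ± 0.166 and 1.29 ± 0.168 (edgeR adjusted p = 1.21e-05, 6.59e-07 and 5.85e-07). MS023 gave 18.7 and 17.4, 21.2 and 23.8, and 23.4 and 19.8 CPM. It rose by 0.74 ± 0.167 at 4 days and 0.68 ± 0.167 at 7 days (edgeR adjusted p = 0.00182 and 0.00431). The 7 day call ended without untreated replicate 1 (0.68), untreated replicate 2 (0.69) or MS023 replicate 1 (0.55).

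PLK2 (ENSG00000145632.14, chromosome 5, 58453982 to 58460260), a stress-induced polo-like kinase, had the highest CPM of all members in untreated cells. It stood at 131 and 163 CPM untreated, and at 206 and 208, 177 and 198, and 235 and 228 CPM after 2, 4 and 7 days of GSK591. Each GSK591 library was above both untreated libraries. The log2 changes were 0.49, 0.35 and 0.66 (edgeR adjusted p = 0.0123, 0.0431 and 0.000203). The 2 day call ended without untreated replicate 1 (0.34), GSK591 replicate 1 (0.50) or GSK591 replicate 2 (0.48). The 4 day call ended without untreated replicate 1 (0.21), GSK591 replicate 1 (0.42) or GSK591 replicate 2 (0.27), and under DESeq2. With MS023 it stood at 197 and 206 CPM at 2 days, a rise of 0.45 that ended without untreated replicate 1 (0.31), MS023 replicate 1 (0.47) or MS023 replicate 2 (0.42), and then at 150 and 180 and 180 and 168 CPM.

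The other 4 arrest genes were less regular. GADD45A, a stress protein that binds cell cycle regulators and was chosen here after its values were seen, stood at 29.4 and 31.3 CPM untreated, 48.4 and 58.3 after 7 days of GSK591 and 42.9 and 43.7 after 7 days of MS023. It rose by 0.81 and 0.51 there, the MS023 call ending without untreated replicate 1 (0.47), and was called at neither 2 nor 4 days. PLK3, another polo-like kinase, rose with GSK591 at 2 days (0.48) and 7 days (0.68). The first call ended without any one of the 4 libraries (0.38 to 0.57) and the second without GSK591 replicate 2 (0.53). CCNG1 rose at 4 days of GSK591 (0.63), a call that ended without untreated replicate 2 (0.45), GSK591 replicate 1 (0.60) or GSK591 replicate 2 (0.66), and both early calls ended under DESeq2. PLK3 and CCNG1 were named after their values were seen. PPM1D, the phosphatase that dampens p53 signalling, was called with neither inhibitor by edgeR, with log2 values from -0.18 to 0.27. The authors' deposited table called it at 7 days of MS023.

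**Figure D3:**
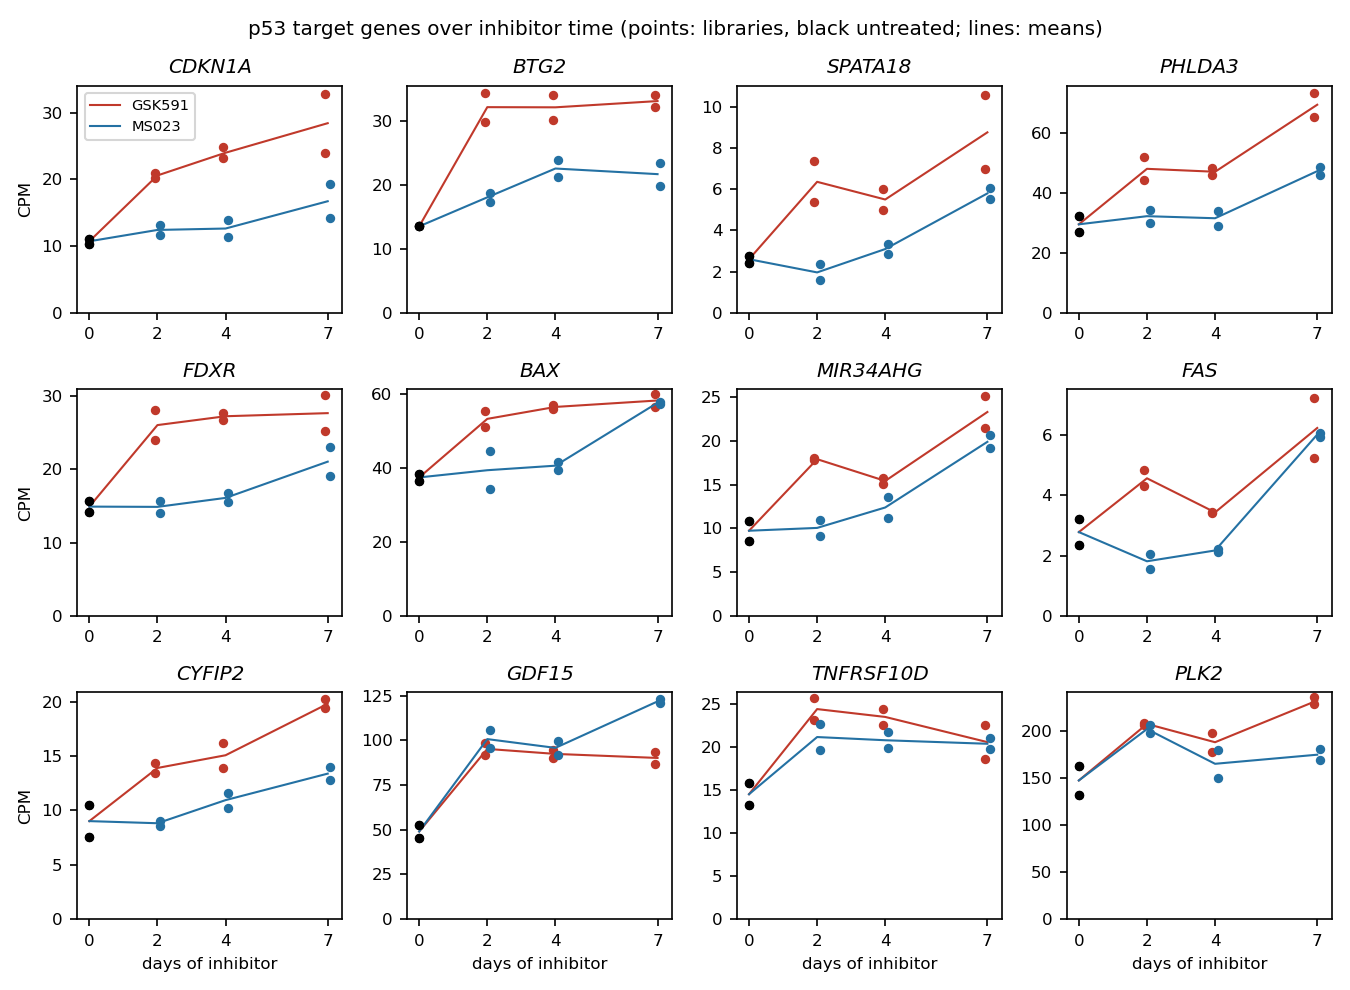
CPM of 12 p53 targets (vertical axis, from 0) against days of inhibitor (horizontal axis), with 1 point per library, untreated libraries in black at 0 days, GSK591 in red, MS023 in blue and lines through the means. BTG2 is already at 29.8 and 34.4 CPM at 2 days of GSK591, whereas FAS, MIR34AHG and SPATA18 are highest at 7 days with both inhibitors.

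Of 15 members with roles in cell death, 5, 6 and 7 rose with GSK591 at 2, 4 and 7 days and 2, 2 and 7 with MS023, while TP53I3 fell at 7 days of MS023. The shares of all genes called higher were 3.19%, 8.91% and 6.68% with GSK591 and 6.18%, 7.8% and 7.13% with MS023. At 7 days of MS023 6.51% of all genes were called lower. The largest change of any member at 7 days was that of SPATA18 (ENSG00000163071.10, chromosome 4, 52051331 to 52097292), which encodes the mitochondrial quality control protein Mieap. It stood at 2.78 and 2.42 CPM untreated, and at 5.38 and 7.36, 4.99 and 6.02, and 10.6 and 6.97 CPM with GSK591. All 6 GSK591 libraries were above both untreated ones, although the libraries at 7 days lay far apart. The changes were 1.30 ± 0.273, 1.08 ± 0.271 and 1.76 ± 0.262 (edgeR adjusted p = 0.00191, 0.00319 and 1.92e-06). The 2 day call ended without GSK591 replicate 2 (1.04), and the 4 day call without untreated replicate 2 (0.98) or GSK591 replicate 2 (0.94). With MS023 it stood at 2.35 and 1.57, 2.84 and 3.35, and 5.52 and 6.08 CPM, called at 7 days only (1.16 ± 0.261, adjusted p = 0.00132).

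PHLDA3 (ENSG00000174307.6, chromosome 1, 201464383 to 201469237), an inhibitor of AKT signalling, stood at 26.7 and 32.1 CPM untreated and at 44.1 and 51.7, 45.7 and 48.1, and 65.3 and 73.2 CPM with GSK591. It rose at each time, by 0.70 ± 0.130, 0.67 ± 0.129 and 1.23 ± 0.129 (edgeR adjusted p = 0.000456, 0.000124 and 5.78e-10). MS023 left it at 29.9 and 34.3 CPM at 2 days and at 29.0 and 33.9 CPM at 4 days. At 7 days 45.7 and 48.6 CPM gave a rise of 0.68 ± 0.127 (edgeR adjusted p = 0.000135). The transcript AC096677.2 overlaps 19.1% of its exonic bases on the same strand, so its counts are uncertain in that stretch.

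BAX (ENSG00000087088.19, chromosome 19, 48954815 to 48961798), which opens the mitochondrial outer membrane, stood at 38.4 and 36.4 CPM untreated. With GSK591 it stood at 51.1 and 55.3, 57.0 and 55.8, and 56.4 and 59.9 CPM, rises of 0.51, 0.59 and 0.64 (edgeR adjusted p = 0.0059, 0.000211 and 0.000124). The 2 day call ended without untreated replicate 2 (0.48) or GSK591 replicate 2 (0.45). In the MS023 libraries it was at 44.4 and 34.2 and at 41.6 and 39.4 CPM, and rose to 57.9 and 57.2 CPM at 7 days (0.62, adjusted p = 0.000136). At 7 days the libraries of the 2 inhibitors overlapped.

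CYFIP2 (ENSG00000055163.19, chromosome 5, 157266079 to 157395595), a cytoskeletal regulator linked to p53-dependent death, stood at 7.56 and 10.5 CPM untreated and at 14.4 and 13.4, 13.9 and 16.2, and 19.4 and 20.2 CPM with GSK591. The groups did not overlap, and it rose by 0.62, 0.73 and 1.13 (edgeR adjusted p = 0.0177, 0.000686 and 7.02e-07). The 2 day call ended without untreated replicate 1 (0.40), GSK591 replicate 1 (0.57) or GSK591 replicate 2 (0.66), and under DESeq2, and the 4 day call without untreated replicate 1 (0.52). With MS023 it stood at 8.60 and 9.05, 11.7 and 10.3, and 12.8 and 14.0 CPM. Only the last was called (0.56), and that call ended without untreated replicate 1 (0.35) or MS023 replicate 2 (0.50).

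TP53INP1 (ENSG00000164938.13, chromosome 8, 94925972 to 94949411), a nuclear protein that promotes p53-dependent death and autophagy, stood at 3.89 and 3.83 CPM untreated. It stood at 7.26 and 5.52, 7.87 and 8.52, and 7.21 and 6.83 CPM with GSK591, and rose at 4 days (1.08) and 7 days (0.86). With MS023 it stood at 4.30 and 5.08, 5.05 and 5.48, and 6.80 and 5.86 CPM and rose at 7 days (0.71). The GSK591 call at 7 days ended without untreated replicate 1 (0.87), untreated replicate 2 (0.85) or GSK591 replicate 1 (0.82). The MS023 call ended without untreated replicate 1 (0.72), untreated replicate 2 (0.70) or MS023 replicate 1 (0.60), and under DESeq2.

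Among the 4 receptors for the death ligand TRAIL, 1 was called by edgeR. TNFRSF10D (ENSG00000173530.5, chromosome 8, 23135588 to 23164030), a decoy receptor without a working death domain, stood at 13.2 and 15.8 CPM untreated. It stood at 23.1 and 25.7, 22.6 and 24.5, and 22.6 and 18.6 CPM with GSK591, and at 19.7 and 22.7, 19.9 and 21.7, and 21.0 and 19.8 CPM with MS023. All 12 inhibitor libraries were above both untreated libraries, and the rises were 0.75, 0.69 and 0.50 with GSK591 and 0.54, 0.51 and 0.49 with MS023. The call at 4 days of GSK591 held without any one library. Without untreated replicate 1 the other 5 calls ended, with log2 values of 0.63 and 0.38 for GSK591 at 2 and 7 days and 0.42, 0.40 and 0.37 for MS023. They also ended without GSK591 replicate 2 at 2 days (0.66), GSK591 replicate 1 at 7 days (0.35), MS023 replicate 2 at 2 days (0.43) and 4 days (0.45), and MS023 replicate 1 (0.44) or 2 (0.53) at 7 days. DESeq2 ended the 3 MS023 calls and the GSK591 call at 7 days. The signalling receptors TNFRSF10A and TNFRSF10B were called with neither inhibitor by edgeR, with log2 values from -0.51 to -0.10 and from -0.28 to 0.23. The authors' deposited tables called TNFRSF10B at 4 and 7 days of GSK591 and at 2 days of MS023.

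The BH3-only activators of BAX also differed in their calls. PMAIP1 (NOXA), named after its values were seen, stood at 17.5 and 18.0 CPM untreated and rose with MS023, to 27.4 and 31.7 CPM at 2 days (0.73, edgeR adjusted p = 0.000469). At 4 days it stood at 22.4 and 25.3 CPM (0.43), a call that ended without any one of the 4 libraries, and at 7 days at 20.7 and 17.7 CPM. It was not called with GSK591, and the difference between the inhibitors at 2 days (-0.38, edgeR adjusted p = 0.183) did not pass. BBC3 (PUMA) was called by edgeR in none of the 6 comparisons, with log2 values from -0.15 to 0.25. The authors' deposited tables called it at 2, 4 and 7 days of GSK591. FAS, also named after its values were seen, stood at 2.34 and 3.22 CPM untreated, 5.23 and 7.24 after 7 days of GSK591 and 5.95 and 6.08 after 7 days of MS023. The rises of 1.14 and 1.10 both ended without untreated replicate 1 (0.94 and 0.90), and the first also without GSK591 replicate 2 (0.90). AEN and TRIAP1 were called with neither inhibitor by edgeR, while the authors' deposited tables called AEN at 2 and 4 days of GSK591.

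In DNA repair and nucleotide supply, none of XPC, DDB2, POLH and RRM2B was called higher than in untreated cells by edgeR at any inhibitor time. At 7 days their log2 values lay between -0.26 and 0.35. The authors' deposited tables, described below, called both XPC and RRM2B at 4 and 7 days of GSK591 and at 7 days of MS023. Each of these tables held only 1 lower member, so at least 1 of the 2 genes was higher there. XPC recognises DNA damage in nucleotide excision repair and RRM2B is the p53-inducible subunit of ribonucleotide reductase. Both fell at 2 days of MS023, by 0.53 and 0.73 on the log2 scale. RRM2B stood at 11.3 and 9.97 CPM untreated and 6.36 and 6.46 CPM with MS023, and its call ended without untreated replicate 1 (-0.64), MS023 replicate 1 (-0.73) or MS023 replicate 2 (-0.75). The call of XPC ended without any one of the 4 libraries, with values from -0.67 to -0.39, and under DESeq2. DDB2 fell by 0.34 at 4 days of GSK591, a call that ended without any one library (-0.35 to -0.34) and under DESeq2. XPC shares 30.4% of its exonic bases with genes of the opposite strand. Under total-count scaling XPC stood at 0.15 at 2 days of MS023 and DDB2 at 0.07 at 4 days of GSK591, turned from lower to higher. These 3 genes were named after their values were seen.

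Among 5 metabolism and growth genes, 2, 3 and 3 rose with GSK591 at 2, 4 and 7 days and 0, 2 and 2 with MS023. The background of all genes called higher was 3.19%, 8.91% and 6.68% with GSK591 and 6.18%, 7.8% and 7.13% with MS023. SESN2 (ENSG00000130766.4, chromosome 1, 28259527 to 28282491), a leucine sensor that restrains mTORC1, stood at 14.0 and 18.8 CPM untreated. With GSK591 it stood at 24.9 and 27.9, 32.9 and 31.6, and 22.4 and 25.3 CPM, and the groups did not overlap. It rose by 0.68, 0.97 and 0.53 (edgeR adjusted p = 0.0036, 2.26e-06 and 0.0138), with its highest libraries at 4 days. In MS023 cells it was at 20.9 and 23.2, 25.2 and 28.2, and 24.2 and 21.8 CPM, and rose at 4 days (0.70) and 7 days (0.48). Except for GSK591 at 4 days, these calls ended without untreated replicate 1, with values of 0.49 and 0.34 for GSK591 at 2 and 7 days and 0.51 and 0.29 for MS023 at 4 and 7 days. They also ended without GSK591 replicate 2 at 2 days (0.59) and 7 days (0.45) and without MS023 replicate 1 at 7 days (0.40), where DESeq2 ended the call too.

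FDXR (ENSG00000161513.11, chromosome 17, 74862497 to 74873031), the mitochondrial ferredoxin reductase whose promoter site is printed above, stood at 14.1 and 15.7 CPM untreated. GSK591 gave 28.1 and 24.0, 27.8 and 26.8, and 25.2 and 30.2 CPM, rises of 0.80 ± 0.141, 0.87 ± 0.137 and 0.89 ± 0.140 (edgeR adjusted p = 0.000237, 4.96e-06 and 6.48e-06). After 2 days of MS023 it stood at 14.1 and 15.7 CPM, as in untreated cells, and at 15.5 and 16.7 CPM after 4 days. It then rose to 23.1 and 19.0 CPM at 7 days (0.50), a call that ended without untreated replicate 1 (0.42) or MS023 replicate 1 (0.35). TIGAR, a sugar phosphatase, had 11 to 50 counts per library and rose at 7 days of GSK591 (1.15). That call ended without untreated replicate 1 (1.41), untreated replicate 2 (0.91) or GSK591 replicate 2 (0.72), and under DESeq2, and 45.6% of its exonic bases overlap other genes. ACER2, a ceramidase, rose at 4 days of both inhibitors (0.99 and 0.81), and each call ended without any one of its 4 libraries. TIGAR and ACER2 were named after their values were seen. SESN1 was called with neither inhibitor by edgeR. The authors' deposited tables called it at 4 and 7 days of GSK591 and at 7 days of MS023.

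Of 6 members that are secreted signals, RNAs or RNA and protein regulators, 2, 2 and 3 rose with GSK591 and 1, 1 and 3 with MS023, and 1 fell at 2 days of MS023. Beside them, 3.19%, 8.91% and 6.68% of all genes were higher with GSK591 and 6.18%, 7.8% and 7.13% with MS023. At 2 days of MS023 4.21% of all genes were lower. GDF15 (ENSG00000130513.6, chromosome 19, 18374731 to 18389176), a secreted stress hormone of the TGF-β family, stood at 45.5 and 52.5 CPM untreated. It stood at 91.9 and 98.4, 94.6 and 90.2, and 87.0 and 93.3 CPM with GSK591, and at 95.5 and 106, 92.0 and 99.5, and 123 and 121 CPM with MS023. All 12 libraries lay above both untreated ones. It was about as high after 2 days as after 7 days of GSK591, with log2 changes of 0.96 ± 0.117, 0.91 ± 0.116 and 0.88 ± 0.117. With MS023 they were 1.04 ± 0.116, 0.97 ± 0.115 and 1.31 ± 0.115, the last with edgeR adjusted p = 4.64e-12. These 6 calls held without any one library.

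MIR3189 (ENSG00000264175.1, chromosome 19, 18386562 to 18386634, 73 bases), inside GDF15 and outside its annotated exons, did not follow its host at the early times. It stood at 7.90 and 10.7 CPM untreated, at 10.8 and 8.96, 10.5 and 8.52, and 15.0 and 15.8 CPM with GSK591, and at 6.94 and 8.49, 12.9 and 12.2, and 19.6 and 19.3 CPM with MS023. The libraries at 2 days overlapped the untreated ones or lay below their mean, while those at 7 days lay above both. Calls were made at 7 days only, 0.72 ± 0.189 with GSK591 and 1.06 ± 0.176 with MS023 (edgeR adjusted p = 0.00602 and 1.92e-05). The GSK591 call ended without untreated replicate 1 (0.52) or GSK591 replicate 2 (0.69).

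MIR34AHG (ENSG00000228526.7, chromosome 1, 9148011 to 9198906), host of miR-34a, stood at 8.56 and 10.9 CPM untreated and at 17.7 and 18.0, 15.1 and 15.7, and 21.5 and 25.1 CPM with GSK591. It rose by 0.87 ± 0.158, 0.66 ± 0.157 and 1.25 ± 0.154 (edgeR adjusted p = 0.000323, 0.00183 and 3.44e-08), the 4 day call ending without untreated replicate 1 (0.50). MS023 gave 11.0 and 9.14, 11.2 and 13.5, and 19.1 and 20.6 CPM, with a rise of 1.03 ± 0.149 at 7 days (edgeR adjusted p = 1.61e-06). LNCTAM34A overlaps it on the opposite strand, so part of its counts may belong to that RNA. ZMAT3, an RNA-binding p53 target, fell by 0.63 at 2 days of MS023 with adjusted p = 0.0499, a call that ended without untreated replicate 1 (-0.46), untreated replicate 2 (-0.80) or MS023 replicate 2 (-0.37), and under DESeq2. It turned to 0.05 under total-count scaling and was named after its values were seen. WRAP53 and FBXO22 were called with neither inhibitor by edgeR. The authors' deposited tables called WRAP53 at 7 days of GSK591, and FBXO22 at 4 and 7 days of both inhibitors. The counts of WRAP53 are uncertain where other genes overlap it.

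The direct comparison of the inhibitors asks which members differ between them, without the untreated libraries. At 2 days 11 members were higher with GSK591 than with MS023 and 0 were lower, against 2.69% of all genes called, 1.11% higher and 1.58% lower. SPATA18 (1.71), FAS (1.34) and BTG2 (0.84) differed most. At 4 days 9 were higher and 0 lower (background 6.03%, higher 2.51%, lower 3.52%), and at 7 days 7 were higher and 1 lower (background 9.38%, higher 4.91%, lower 4.47%). CDKN1A differed at each time, by 0.73, 0.93 and 0.77 (edgeR adjusted p = 0.00216, 6.69e-06 and 8.89e-05). BTG2, FDXR, PLK3 and PHLDA3 were called at each time too. GDF15 was the one member lower with GSK591 at 7 days (-0.43, edgeR adjusted p = 0.00731).

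The count of 11 at 2 days was 4 without GSK591 replicate 2 and 3 without MS023 replicate 2. That of 9 at 4 days was 3 and 5 without GSK591 replicates 1 and 2 and 4 and 3 without MS023 replicates 1 and 2. That of 8 at 7 days was 2, 4, 5 and 5 in the same order. FDXR and SPATA18 at 2 days and CDKN1A and FDXR at 4 days were called without any one library, and no call at 7 days was. Under total-count scaling, which lowers the median of all genes by 1.07 in the 7 day comparison, CDKN1A, BTG2, FDXR, PLK2, PLK3, PHLDA3 and CYFIP2 were lower with GSK591 than with MS023.

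Between 2 and 7 days of MS023, 16 members were higher at 7 days than at 2 days and 1, PMAIP1, was lower (background 13.2%, higher 6.11%, lower 7.06%), with a member median of 0.32. FAS (1.73), SPATA18 (1.57), MIR3189 (1.33) and MIR34AHG (0.99) rose most, and XPC, RRM2B and ZMAT3, which were low at 2 days, rose by 0.65, 0.75 and 0.74. Those 3 calls ended without MS023 2 days replicate 2 (0.55, 0.77 and 0.47), and the call of PMAIP1 (-0.62) ended without the same library (-0.51) or MS023 7 days replicate 2 (-0.50). RRM2B also lost its call without MS023 2 days replicate 1 (0.75), XPC and RRM2B without MS023 7 days replicate 2 (0.50 and 0.66), and ZMAT3 without MS023 7 days replicate 1 (0.59). The count of 17 was 10 without MS023 2 days replicate 1, 8 without MS023 2 days replicate 2 and 11 without MS023 7 days replicate 2. FAS, SPATA18, MIR3189, MIR34AHG and GADD45A were called without any one library. With GSK591, 6 members were higher at 7 than at 2 days and 0 lower (background 8.39%, higher 3.71%, lower 4.68%): CYFIP2, BBC3, GADD45A, CDKN1A, PHLDA3 and MIR3189. Without any one library this count was 2 or 3 (2 without GSK591 2 days replicate 1 or 2 or GSK591 7 days replicate 1, 3 without GSK591 7 days replicate 2), and GADD45A (0.72) was called throughout.

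Dex alone moved several p53 targets within minutes. After 15 min 3 members rose and 0 fell, against 1.26% of all genes called and 0.96% called higher and 0.301% lower. CDKN1A stood at 21.1 and 21.7 CPM against 10.3 and 11.1 untreated, a rise of 1.00 ± 0.154 (edgeR adjusted p = 1.86e-05). GADD45A stood at 51.4 and 51.4 against 29.4 and 31.3 CPM (0.76) and TP53I3 at 134 and 141 against 94.2 and 97.4 CPM (0.52). The groups did not overlap for these 3 genes. The call of TP53I3 ended without untreated replicate 1 (0.49) or Dex replicate 2 (0.48).

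After 3 h of Dex 10 members rose and 5 fell (background 10.5%, higher 6.11%, lower 4.41%). CDKN1A reached 31.5 and 30.6 CPM (1.53 ± 0.151, edgeR adjusted p = 3.62e-11), above every library given MS023 alone and between the 2 libraries of 7 days of GSK591. GADD45A reached 70.6 and 70.7 CPM (1.22 ± 0.129) and PHLDA3 51.8 and 60.7 CPM (0.93 ± 0.129). CCNG1 (cyclin G1) rose by 0.96, BTG2 by 0.83, TP53I3 by 0.74, FDXR and SESN2 by 0.65 each, TNFRSF10B by 0.56 and TNFRSF10D by 0.49. Among those that fell, MIR3189 went from 7.90 and 10.7 to 2.66 and 2.56 CPM (-1.83 ± 0.246, edgeR adjusted p = 1.47e-07) and GDF15 from 45.5 and 52.5 to 33.3 and 36.3 CPM (-0.50 ± 0.122). PLK2 fell by 0.52, WRAP53 by 0.51 and BBC3 by 0.33.

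Of these 15 calls, 9 held without any one library. Those of GDF15 and PLK2 ended without untreated replicate 2 (-0.39 and -0.35) or Dex replicate 1 (-0.43 and -0.43), that of WRAP53 without untreated replicate 2 (-0.34), and that of SESN2 without untreated replicate 1 (0.46) or Dex replicate 2 (0.54). That of TNFRSF10D ended without untreated replicate 1 (0.37) or Dex replicate 1 (0.35), and that of BBC3 without untreated replicate 1 (-0.32), untreated replicate 2 (-0.34) or Dex replicate 1 (-0.20).

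With an inhibitor added for the 3 h of Dex, no member was called. Against Dex alone, 0 of 37 members were called with GSK591 and 0 with MS023 by edgeR, and 0 and 0 by DESeq2, with 2 and 3 members at an unadjusted p below 0.05. Over all genes 0.0% and 0.196% were called, the latter 0.135% higher and 0.0611% lower. CDKN1A stood at 33.1 and 33.1 CPM with Dex and GSK591 and at 37.3 and 31.8 CPM with Dex and MS023, beside 31.5 and 30.6 CPM with Dex. Without replicate 1 of Dex and MS023, the group whose libraries agreed least, 2 members were called.

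After 7 days of inhibitor, Dex still moved p53 targets. At 3 h, 8 members rose and 2 fell after GSK591 (background 9.85%, higher 5.39%, lower 4.46%), and 7 rose and 4 fell after MS023 (background 11.1%, higher 5.72%, lower 5.38%). CDKN1A reached 56.0 and 55.6 CPM after GSK591 and 34.6 and 35.4 CPM after MS023, rises of 0.97 ± 0.132 and 1.06 ± 0.132 over the inhibitor alone. BTG2 reached 69.9 and 58.0 CPM after GSK591 (0.95) and 37.4 and 34.2 CPM after MS023 (0.73). PLK2 fell to 124 and 104 CPM after GSK591 (-1.02 ± 0.125) and to 85.3 and 87.8 CPM after MS023 (-1.01 ± 0.124). GDF15 fell by 0.74 after GSK591 and by 1.20 after MS023, and MIR3189 by 0.75 after MS023. These calls held without any one library. TP53I3 (0.62 and 0.78), TP53INP1 (0.69 and 1.00), GADD45A (0.46 and 0.51), TNFRSF10B (0.47 and 0.40) and FDXR (0.39 and 0.38) rose after both inhibitors, SESN2 (0.47) after GSK591, and WRAP53 fell by 0.45 after MS023. Of these, TP53I3 in both and TP53INP1 after MS023 were called without any one library. The levels of CDKN1A and BTG2 in GSK591 cells with 3 h of Dex were above those of every library given only one of these agents.

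TP53I3 rose after 15 min of Dex in both (0.56 after GSK591, 0.51 after MS023), while CDKN1A, at -0.02 ± 0.138 and 0.09 ± 0.139, was not called. In these 15 min comparisons 2 and 2 members were called (background 2.09%, higher 1.07% and lower 1.03%, and 2.07%, higher 1.23% and lower 0.842%): TP53I3 and PMAIP1 (0.57) after GSK591, and TP53I3 and FDXR (-0.46) after MS023. PMAIP1 and FDXR were named after their values were seen. Without GSK591 7 days replicate 1 or GSK591 with Dex replicate 1 the first count was 0, and without GSK591 7 days replicate 2 it was 1. The second was 0 without MS023 7 days replicate 1 or MS023 with Dex replicate 2, and 1 without either other library. After GSK591 the 3 h count of 10 was 5 without GSK591 7 days replicate 1.

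The remaining values of the 14 members in the Dex libraries are given here. Without inhibitor, BTG2 stood at 12.2 and 10.4 CPM at 15 min and at 22.4 and 25.8 CPM at 3 h of Dex. PLK2 stood at 117 and 113 and then at 96.2 and 109 CPM, below both untreated libraries at each time. GDF15 was at 44.3 and 55.2 CPM at 15 min and MIR3189 at 7.60 and 7.10 CPM, with only the 3 h changes called. PHLDA3 was at 29.9 and 26.6 CPM, and FDXR at 12.8 and 13.3 and then 22.0 and 24.9 CPM. SESN2, like FDXR called at 3 h only, stood at 16.6 and 14.0 and then 23.9 and 28.1 CPM. TNFRSF10D was at 18.5 and 18.8 and then 22.2 and 18.6 CPM. Neither time was called by edgeR for the next 5 genes, although some of their libraries lay above the untreated ones. Of these, BAX, TP53INP1 and SPATA18 were called at 3 h in the authors' deposited table. BAX stood at 39.8 and 34.9 and then 48.0 and 46.8 CPM, and TP53INP1 at 6.22 and 4.50 and then 6.38 and 5.74 CPM. SPATA18 stood at 1.48 and 2.40 and then 3.61 and 4.03 CPM, and MIR34AHG at 9.87 and 7.60 and then 12.3 and 12.5 CPM. CYFIP2 stood at 9.18 and 9.10 and then 7.02 and 7.94 CPM, the one gene of the 5 without a higher level at 3 h.

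With GSK591 added for the 3 h of Dex, and then with MS023 added, no member differed from Dex alone at the test threshold. BTG2 stood at 22.7 and 26.4 and at 24.3 and 16.7 CPM in these groups, PLK2 at 90.9 and 114 and at 106 and 80.6 CPM, and PHLDA3 at 52.8 and 60.2 and at 65.3 and 50.7 CPM. GDF15 stood at 29.5 and 34.5 and at 35.2 and 29.1 CPM, and MIR3189 at 4.39 and 2.08 and at 2.08 and 1.66 CPM. Both genes of this locus stayed below both untreated libraries. BAX stood at 50.4 and 48.6 and at 56.9 and 43.2 CPM, TNFRSF10D at 22.9 and 21.0 and at 18.3 and 22.9 CPM, and SESN2 at 25.6 and 27.0 and at 25.9 and 19.7 CPM. FDXR stood at 19.1 and 20.5 and at 15.1 and 19.4 CPM, each library below those of Dex alone. TP53INP1 stood at 5.72 and 7.70 and at 7.00 and 5.67 CPM, and SPATA18 at 2.86 and 3.12 and at 4.16 and 2.84 CPM. CYFIP2 stood at 8.98 and 9.99 and at 8.75 and 9.69 CPM, and MIR34AHG at 13.6 and 14.9 and at 14.7 and 14.2 CPM.

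After 7 days of GSK591, CDKN1A stood at 30.7 and 25.9 CPM at 15 min of Dex and BTG2 at 40.4 and 29.1 CPM. PLK2 was at 206 and 170 CPM at 15 min, before its fall at 3 h, and GDF15 at 76.8 and 65.8 and then 52.7 and 55.0 CPM. MIR3189, called at neither time, stood at 14.9 and 12.7 and then 12.7 and 11.1 CPM. TP53INP1 was at 5.19 and 6.54 and then 10.1 and 12.6 CPM, FDXR at 29.0 and 32.1 and then 37.2 and 35.3 CPM, and SESN2 at 20.2 and 18.1 and then 36.7 and 29.3 CPM. These 3 were called at 3 h. PHLDA3 stood at 49.9 and 55.5 and then 70.1 and 71.4 CPM, BAX at 56.3 and 48.1 and then 60.8 and 62.2 CPM, and SPATA18 at 7.38 and 6.64 and then 10.6 and 10.7 CPM. CYFIP2 stood at 17.6 and 18.9 and then 19.5 and 18.2 CPM, TNFRSF10D at 23.8 and 18.8 and then 24.9 and 20.4 CPM, and MIR34AHG at 24.3 and 24.1 and then 23.4 and 25.3 CPM. None of these 6 was called against GSK591 alone.

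After 7 days of MS023, CDKN1A stood at 17.8 and 18.0 CPM at 15 min and BTG2 at 20.3 and 26.2 CPM. PLK2 was at 141 and 155 CPM, GDF15 at 114 and 135 and then 51.0 and 54.8 CPM, and MIR3189 at 21.2 and 25.1 and then 10.8 and 12.4 CPM. FDXR fell at 15 min, to 15.3 and 15.2 CPM, and stood at 27.3 and 27.5 CPM at 3 h, and TP53INP1 went from 5.89 and 7.32 to 12.9 and 12.5 CPM. PHLDA3 stood at 38.4 and 41.4 and then 52.2 and 62.3 CPM, BAX at 51.1 and 54.4 and then 58.8 and 62.6 CPM, and SESN2 at 17.8 and 22.3 and then 24.5 and 26.4 CPM. SPATA18 stood at 6.51 and 6.66 and then 6.08 and 6.86 CPM, CYFIP2 at 15.2 and 14.4 and then 12.4 and 11.6 CPM, and TNFRSF10D at 19.0 and 23.1 and then 19.8 and 23.5 CPM. MIR34AHG stood at 16.1 and 17.2 and then 18.5 and 20.1 CPM. None of these 7 was called against MS023 alone.

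**Figure D4:**
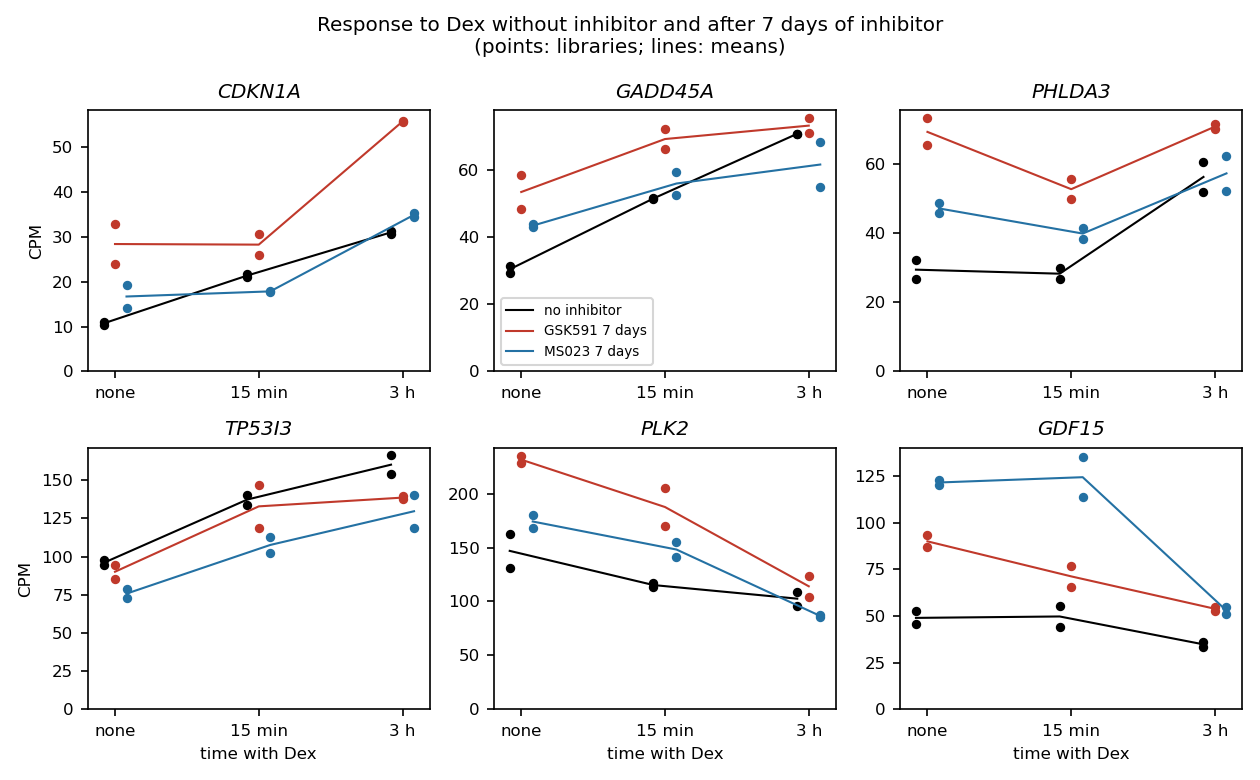
CPM of 6 p53 targets (vertical axis, from 0) without Dex, at 15 min and at 3 h of Dex (horizontal axis), with 1 point per library and lines through the means, for cells without inhibitor (black), after 7 days of GSK591 (red) and after 7 days of MS023 (blue). GDF15 falls from 123 and 121 to 51.0 and 54.8 CPM after MS023, while PHLDA3 rises in cells without inhibitor.

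The test of whether the 3 h response to Dex differs after an inhibitor (an interaction) called 3 members with GSK591 and 1 with MS023, against 0.223% of all genes for each inhibitor. The positive interactions over all genes made up 0.0393% for GSK591 and 0.0785% for MS023, and the negative ones 0.183% and 0.144%. PHLDA3 rose by 0.93 without inhibitor and had a change of 0.03 ± 0.122 after GSK591 (interaction -0.90 ± 0.177, edgeR adjusted p = 0.0103). GADD45A rose by 1.22 without inhibitor and by 0.46 after GSK591 (-0.76 ± 0.179, adjusted p = 0.0458). MIR3189 fell by 1.83 without inhibitor and had a change of -0.37 after GSK591, not called (1.46 ± 0.312, adjusted p = 0.0193). It had only 25 and 21 counts in the libraries with 3 h of Dex alone. The MS023 interactions of these 3 genes were -0.65 for PHLDA3, -0.71 for GADD45A and 1.08 for MIR3189, and did not pass (adjusted p = 0.0973, 0.0644 and 0.119). GDF15 fell by 0.50 without inhibitor and by 1.20 after MS023 (-0.71 ± 0.166, adjusted p = 0.0425), and its GSK591 interaction was -0.24 (adjusted p = 0.74). CDKN1A had interactions of -0.57 ± 0.201 and -0.47 ± 0.201, which were not called (edgeR adjusted p = 0.294 and 0.429).

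The call of PHLDA3 ended without untreated replicate 1 (-0.77), Dex replicate 2 (-0.78) or GSK591 7 days replicate 2 (-0.82). That of GADD45A ended without any one of its 8 libraries, with values from -0.89 to -0.63. That of MIR3189 ended without untreated replicate 2 (1.22), Dex replicate 1 (1.48) or 2 (1.43), or GSK591 7 days replicate 1 (1.42) or 2 (1.49). That of GDF15 ended without any one of its libraries except Dex replicate 1, with values from -0.81 to -0.60.

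MIR3189 lies inside GDF15, and the ratio of their counts within a library does not depend on the scaling. In untreated cells MIR3189 had 17.4 and 20.3 counts per 100 GDF15 counts. The ratio was 9.11 to 11.7 after 2 days of GSK591 and 7.27 to 8.03 after 2 days of MS023, below both untreated libraries. It was 9.45 to 11.1 and 12.2 to 14.1 at 4 days, and 17.0 to 17.2 and 16.0 to 16.0 at 7 days of GSK591 and MS023. Dex for 3 h gave 7.07 to 7.99 without inhibitor, from only 21 and 25 MIR3189 counts. It gave 20.2 to 24.1 after 7 days of GSK591 and 21.1 to 22.6 after 7 days of MS023, which do not overlap the first. With GSK591 added for the 3 h of Dex the ratio was 14.9 and 6.02, from 43 and 20 MIR3189 counts. With MS023 added it was 5.9 and 5.72. Ratios from so few counts are imprecise. The ratio was chosen after the values were seen, and it was not tested.

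**Figure D5:**
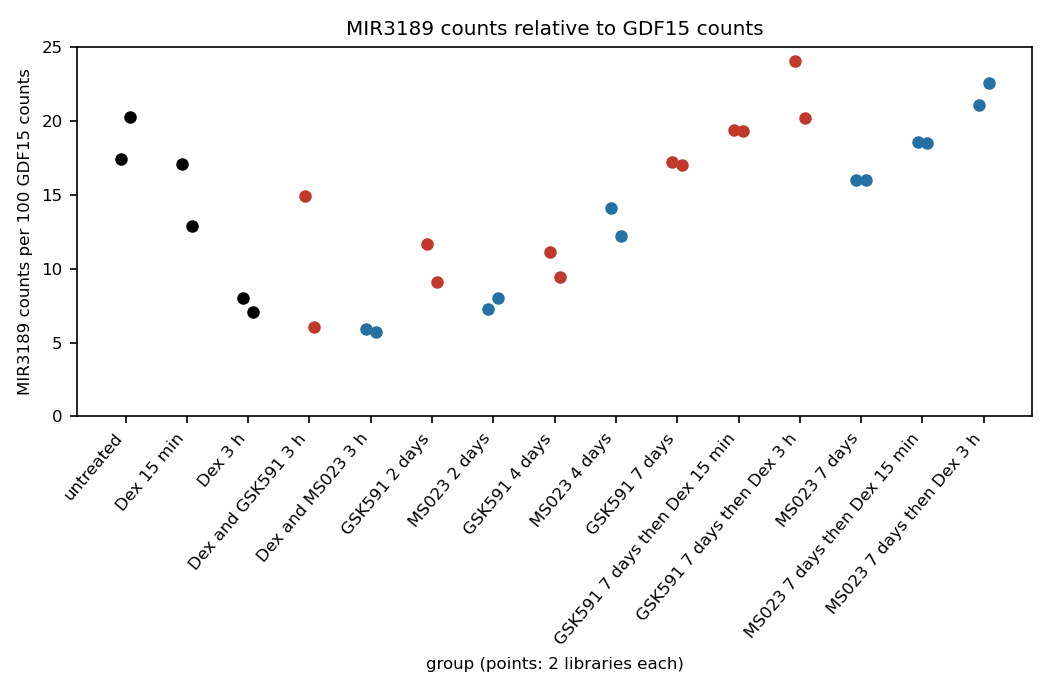
MIR3189 counts per 100 GDF15 counts (vertical axis, from 0) in each of the 15 groups (horizontal axis), with 1 point per library, black without inhibitor, red with GSK591 and blue with MS023. The Dex 3 h libraries at 7.07 and 7.99, from 21 and 25 MIR3189 counts, lie far below those given Dex for 3 h after 7 days of GSK591, at 20.2 and 24.1. With GSK591 added for the 3 h of Dex the 2 libraries lie apart, at 14.9 and 6.02.

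Of 24 tested regulators and partners of the pathway, 2 were higher and 2 lower at 7 days of GSK591 and 1 higher and 3 lower at 7 days of MS023. Over all genes 6.68% were higher and 6.52% lower with GSK591, and 7.13% and 6.51% with MS023. The medians of the list were -0.12 and 0.04. MDM2 went from 43.5 and 42.3 CPM untreated to 72.3 and 71.4, 79.7 and 84.8, and 112 and 147 CPM after 2, 4 and 7 days of GSK591 (0.74, 0.94 and 1.59 ± 0.113). After MS023 it stood at 38.6 and 39.3, 47.0 and 55.0, and 91.4 and 88.3 CPM, with a call at 7 days only (1.07 ± 0.111, edgeR adjusted p = 6.06e-10). RPL5 and RPL11, ribosomal proteins known to bind MDM2, fell at 7 days of GSK591 (by 0.76 and 0.55) and of MS023 (by 0.71 and 0.54). TP73 rose with GSK591 (0.69), and the phosphatase gene PPM1G fell by 1.27 with MS023. At 3 h of Dex 2 of the 24 were higher and 1 lower, beside 6.11% and 4.41% of all genes. MDM2 rose by 0.35 there. HIPK2, of the same list, stood at 30.2 and 30.8 CPM at 3 h of Dex against 13.5 and 11.5 CPM untreated.

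A further 25 p53 targets outside the 37, of which 24 were tested, gave 6 higher and 1 lower at 7 days of GSK591 and 4 higher and 2 lower at 7 days of MS023, beside 6.68% and 6.52% of all genes higher and lower with GSK591 and 7.13% and 6.51% with MS023. Their medians were 0.29 and 0.20. CD82 (1.43 and 1.31), RPS27L (0.81 and 0.66), KITLG (0.77 and 0.71) and IER5 (0.52 and 0.53) rose with both. EDA2R (1.06) and ORAI3 (0.53) were called higher with GSK591. E2F7, a repressor that also follows the cell cycle, fell by 1.14 and 0.96, and PIDD1 fell by 0.48 with MS023. After 3 h of Dex 0 of the 24 rose and 1 fell at the edgeR threshold, beside 6.11% of all genes higher and 4.41% lower. The difference between this list and the members was not tested. All 5 proliferation markers fell at 7 days of GSK591, MKI67 by 2.14, MCM2 by 2.11, TOP2A by 1.99, CCNB1 by 1.67 and PCNA by 0.95. At 7 days of MS023 MCM2 (by 1.13), PCNA (by 0.64) and CCNB1 (by 0.56) fell. The part of these lower proliferation genes in the p53 target values was not tested.

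The authors' deposited tables of each treatment against untreated cells, as used here, list 30 of the 37 members. The other 7 have no value there, so their edgeR calls could not be compared with the authors' calls. Of these 7, 6 lie on chromosome 1, and no gene found only on that chromosome is listed. At adjusted p below 0.05 the authors' deposited tables hold higher values for 13, 20 and 21 of the 30 after 2, 4 and 7 days of GSK591 and lower values for 0, 1 and 1. Of all 28873 genes in the authors' deposited tables, 2.63%, 7.38% and 6.58% were higher and 4.36%, 8.01% and 7.98% lower. After MS023 the authors' deposited tables give 4, 10 and 19 higher and 4, 2 and 1 lower, beside 4.51%, 6.05% and 5.9% of all genes higher and 4.95%, 7.31% and 7.55% lower. Calls in both the edgeR fit and the authors' deposited tables numbered 8, 10 and 11 with GSK591 and 3, 2 and 8 with MS023, and 0 of them were opposite in direction. Members called in the authors' deposited tables and not in the fit numbered 5, 11 and 11 with GSK591 and 5, 10 and 12 with MS023, and members called in the fit alone, and not in the authors' deposited tables, numbered 0, 2 and 0 with GSK591 and 4, 2 and 2 with MS023. At 3 h of Dex the authors' deposited table gives 11 higher and 2 lower, beside 6.05% and 6.07% of all genes. There 6 members were called in both, 7 in the authors' table alone and 4 in the fit alone. At 15 min of Dex these numbers were 2, 2 and 0.

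For single members the 2 sources can differ in size. For GDF15 at 3 h of Dex the authors' deposited table gives -1.52 (SE 0.200), where the edgeR fit gives -0.50. For SPATA18 at 7 days of GSK591 it gives 2.45, where the fit gives 1.76, and for CDKN1A 1.78, where the fit gives 1.41. TIGAR at 7 days of GSK591 is 1.11 in the authors' deposited table and 1.15 in the fit, with adjusted p = 5.12e-21 and 0.028. For FAS at 7 days of MS023 the authors' deposited table gives 0.36 (adjusted p = 0.166), where the fit gives 1.10. The authors' counting for these tables is not given in the sources used here.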

How the data were processed

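PRO-seq was done on 30 libraries of A549 cells in 15 groups of 2, grouped by their labels. The authors deposited a matrix of whole-number counts for 58780 genes, made with featureCounts 2.0.1 of Subread on hg38 per the submitters' processing notes. The feature type and use of strand are not given in the sources used here. The authors also deposited 14 tables of comparisons with untreated cells, whose columns hold log2 fold changes with standard errors and p-values, per the file headers. All gene identifiers matched GENCODE 29.

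Counts were fitted with the edgeR 4.0.16 quasi-likelihood test (R 4.3.3, TMM scaling, robust) over all 15 groups, with no covariate and 15 residual degrees of freedom. The filter (minimum count 10, total 15) kept 22919 genes. P-values of each of the 21 contrasts were corrected over all these genes (Benjamini-Hochberg), with calls at 0.05. CPM are counts scaled to the TMM-adjusted library size. The procedure was tested on simulated data. No molecular identifiers are mentioned, so precision is limited by counting and by 2 libraries a group.

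The members, gene lists, roles and tests were chosen with earlier results of these data known. Values in every sample are given for 14 members: those called in at least 3 of 6 inhibitor comparisons, and the 2 largest called changes at 7 days of each inhibitor, at 3 h of Dex and between the inhibitors at 7 days. Others named with values were picked after their values were seen, except where the lists of pathway genes name them. 1 further gene of the regulator list is not reported here. SETD7 was not matched, and CDKN2A and TP53AIP1 were too low to test. Promoter and microRNA sequences are RefSeq's on GRCh38.p14.

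Alternatives were DESeq2 size factors, total counts only, no filter, no mitochondrial or ribosomal RNA genes, the compared groups alone, DESeq2 1.42.0, a replicate block, and omission of single libraries.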

Additional observations from a re-analysis of the deposited data

Results flagged for a closer look

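The test of the difference itself singled out 4 responses to 3 h of Dex that differed between cells without inhibitor and cells after 7 days of an inhibitor. PHLDA3 had an interaction of -0.90 with GSK591, from 0.93 to 0.03. GADD45A had -0.76 with GSK591, from 1.22 to 0.46. MIR3189 had 1.46 with GSK591, from -1.83 to -0.37, with only 25 and 21 counts in the libraries with 3 h of Dex alone. The MS023 interactions of these 3 genes were -0.65, -0.71 and 1.08 (edgeR adjusted p = 0.0973, 0.0644 and 0.119) and did not pass. GDF15 had -0.71 with MS023, from -0.50 to -1.20, and -0.24 with GSK591, which did not pass. The adjusted p of each ended above 0.05 without at least 1 library and under total-count scaling, and the cause of the differences was not tested.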

How the results depend on the processing

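Scaling by total counts alone changed most. Under it the number of members called was 22 at 2 days, 30 at 4 days and 36 at 7 days of MS023, 10 at 7 days of GSK591, 2, 0 and 30 between the inhibitors at 2, 4 and 7 days, and 0 for GSK591 at 7 against 2 days. In the same order 9228, 11285, 16196, 1135, 1108, 1358, 16029 and 1823 of all genes were called. The number of members was 0 and 0 for 15 min of Dex after GSK591 and after MS023, 6 for 3 h of Dex after MS023, and 0 and 0 for the interactions. There 72, 71, 1007, 0 and 0 of all genes were called. Total counts also turned the direction of CDKN1A (-0.25), BTG2 (-0.43), FDXR (-0.67), PLK2 (-0.63), PLK3 (-0.48), PHLDA3 (-0.50) and CYFIP2 (-0.48) between the inhibitors at 7 days, of TP53I3 at 7 days (0.68) and ZMAT3 (0.0513) and XPC (0.15) at 2 days of MS023, and of DDB2 at 4 days of GSK591 (0.0742). The cause was not tested. With the compared groups alone 11 members were called at 2 days of MS023, 1 for 15 min of Dex after GSK591 and 3 for the MS023 interaction. DESeq2 called 4 and 3 at 2 and 4 days of MS023, 5 between the inhibitors at 4 days, 3 for GSK591 at 7 against 2 days, and 1 and 1 for 15 min of Dex after GSK591 and MS023. Without the filter 1 member was called for Dex and MS023 against Dex and 3 for the MS023 interaction. DESeq2 size factors gave 1 for 15 min of Dex after MS023.

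Leaving out 1 library gave 6 to 12, 11 to 13 and 12 to 16 members at 2, 4 and 7 days of GSK591, and 2 to 6, 2 to 4 and 6 to 13 with MS023. Between the inhibitors it gave 3 to 8, 3 to 5 and 2 to 5, and for 7 against 2 days 2 to 3 with GSK591 and 8 to 12 with MS023. For Dex it gave 2 to 3 at 15 min and 11 to 14 at 3 h, 0 to 0 and 0 to 2 with GSK591 and MS023 added, 0 to 2 and 5 to 9 after GSK591, 0 to 1 and 8 to 9 after MS023, and 0 to 2 and 0 to 1 for the interactions. Of 174 member calls, 113 ended under at least 1 setting. The replicate numbers were not taken as pairs in the main fit. Over 105 pairs of groups, deviations of libraries with one number correlated at -0.452 to 0.487 (median 0.0239), and 23 pairs exceeded 0.1. This does not settle whether the libraries of some groups were paired. With the replicate block, 2 members were called for the MS023 interaction, and all 174 calls stayed.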
